A study of Mus musculus with 16 samples.

Results

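TRBV19, called Vbeta6 in the older naming, is 1 of the variable segments from which mouse T cells build the beta chain of their antigen receptor. A cell was counted as a TRBV19 cell when its productive beta (TRB) contig, the assembled receptor transcript, carried this segment. Where a cell had several productive TRB contigs, the contig with the most unique molecular identifiers (UMIs, molecule tags) was taken. By this rule 344 of the 5760 cells with a TRB chain were TRBV19 cells (5.97%). The segment was chosen by its measured difference in share between the genotypes of these libraries, so its shares and clone sizes by genotype are given as values with no test.

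The study profiled tumor-infiltrating cells from liver tumors formed by Hepa1-6, a mouse hepatoma line, implanted in C57BL/6 mice, in the left lobe of the liver. The KO group was CD4creMatr3fl/fl, in which Cre under Cd4 control deletes the floxed gene of Matrin-3, a nuclear RNA- and DNA-binding protein. Because Cd4 is switched on before CD4+ and CD8+ T cells part in the thymus, Cd4-Cre deletes floxed genes in both lineages. The CON group was CD4creMatr3WT/WT, which carries the same Cre and intact Matr3. Tumors were taken at day 14 and day 5, with 2 receptor libraries for each of the 4 groups: KO day 14, CON day 14, KO day 5 and CON day 5. Nothing in the labels states that replicate libraries derive from different animals, and p-values therefore measure only the spread between libraries, which may be technical. Matr3 itself cannot be checked in receptor tables, and these tables do not separate CD4+ cells from CD8+ cells. The 8 gene expression libraries of the series were not analysed here. Between 462 and 1357 cells per library had a TRB chain, and no pair of libraries shared more than 3 cell barcodes.

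A T cell assembles its beta chain gene by joining a V, a D and a J segment, and bases are trimmed and added at the joints. The V segment encodes the loops CDR1 and CDR2, which mostly touch the MHC molecule, whereas CDR3 spans the joint and mostly touches the peptide. Cells that descend from the same rearranged cell share the nucleotide sequence of the joint, and are counted here as a clonotype (same V, same J, same CDR3 bases within a library). Mouse Vbeta6 is best known for its reaction with a superantigen encoded by an endogenous mammary tumor virus, which C57BL/6 mice lack. Human TRBV19 is known for influenza matrix peptide receptors whose CDR3 begins with an arginine-containing motif. That human role is given as background only.

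Trbv19 (Tcrb-V6) lies at chr6:41178589-41179048 in GRCm38.p6, a V segment of 460 bases in the reference gene table. Parts of its sequence are shown because they define the chains described here. The common CDR3 start is not a germline reference. It is the longest start shared by at least 50% of the TRBV19 clonotypes themselves. All 344 cells carried the same CDR1 and CDR2 bases, and the common CDR3 start was present in 238 of 344 cells. Those cells include 98 cells of 1 library with the same CDR3 bases.
TRBV19 CDR1: ttcaatcatgataca
TRBV19 CDR2: tcaataactgaaaacgat
TRBV19 common CDR3 start: tgtgccagcagta

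The joints of the large clonotypes and of the recurring beta CDR3 carry the main observations, and are shown in the same 5′ to 3′ direction. In the first 5 lines capitals mark the bases that matched neither the common TRBV19 start nor the common end of the joined J segment. They approximate the added and D-derived bases, and can include bases encoded by V or J beyond those common ends.
CON day 14 replicate 1, 98 cells, TRBJ1-4: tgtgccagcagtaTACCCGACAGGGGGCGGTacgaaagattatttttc
CON day 5 replicate 1, 15 cells, TRBJ2-7: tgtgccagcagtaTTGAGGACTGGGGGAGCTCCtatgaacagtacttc
CON day 14 replicate 2, 11 cells, TRBJ2-4: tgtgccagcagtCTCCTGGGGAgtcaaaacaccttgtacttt
CON day 5 replicate 2, 4 cells, TRBJ1-3: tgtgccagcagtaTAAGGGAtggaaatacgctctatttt
KO day 14 replicate 1, 3 cells, TRBJ1-3: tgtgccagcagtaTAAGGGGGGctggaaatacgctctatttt
The 3-cell joint also belongs to the recurring beta CDR3, whose 4 nucleotide forms follow with capitals at the 3 positions where they differ. All 4 forms encode the residues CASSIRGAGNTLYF and were joined to TRBJ1-3.
Form 1, KO day 14 replicate 1: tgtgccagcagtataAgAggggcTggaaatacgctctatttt
Form 2, KO day 14 replicate 2: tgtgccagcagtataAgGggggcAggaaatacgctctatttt
Form 3, KO day 14 replicate 1 and KO day 5 replicate 2: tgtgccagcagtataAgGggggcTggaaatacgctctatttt
Form 4, KO day 14 replicate 2 and CON day 14 replicate 2: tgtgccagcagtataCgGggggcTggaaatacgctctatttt

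The share of TRBV19 among TRB cells was lower in each KO library than in each CON library of the same day. Such separation at both days was not particular to TRBV19. Of the 19 other TRBV segments compared, TRBV29 kept the same order. TRBV12-2, TRBV20 and the joint call TRBV12-2+TRBV13-2 kept the opposite order, and the rest kept neither. TRBV12-2 was 4.0% and 5.1% in KO day 14, against 2.0% and 2.6% in CON day 14. It was 4.5% and 3.5% in KO day 5, against 3.2% and 2.7% in CON day 5. At day 14, TRBV19 made up 3.30% (18 of 546 cells) and 1.79% (13 of 725) of TRB cells in the KO libraries. At day 14 it made up 10.8% (146 of 1357) and 3.38% (27 of 798) in the CON libraries. The closest KO and CON values at day 14, 3.30% and 3.38%, had overlapping 95% Wilson intervals of 2.10% to 5.15% in the KO library and 2.34% to 4.88% in the CON library. These intervals cover counting error only. At day 5, the share was 5.64% (31 of 550) and 3.90% (18 of 462) in the KO libraries, against 7.67% (45 of 587) and 6.26% (46 of 735) in the CON libraries. The day 5 intervals overlapped as well, reaching up to 7.89% in KO replicate 1 and down to 4.73% in CON replicate 2. Among the 21 TRBV segments seen in each KO library, TRBV19 ranked 10th and 17th at day 14, and 6th and 10th at day 5. It was the 3rd most frequent segment in 3 of the 4 CON libraries and the 8th in CON day 14 replicate 2.

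The day 14 mean share was 2.55% ± 1.06 in KO and 7.07% ± 5.22 in CON (SD, n = 2 each), a log2 ratio of -1.47. The day 5 mean share was 4.77% ± 1.23 in KO and 6.96% ± 0.995 in CON (SD, n = 2 each), a log2 ratio of -0.55. The SD of the day 14 CON pair was larger than the difference between the day 14 means. CON day 14 replicate 1 set much of that difference, as the log2 ratio was -0.41 without that library.

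With each clonotype counted once, the genotypes overlapped at both days. At day 14, 4.98% (15 of 301) and 3.06% (13 of 425) of clonotypes used TRBV19 in the KO libraries, against 6.91% (41 of 593) and 4.67% (17 of 364) in the CON libraries. At day 5, the clonotype share was 5.74% (30 of 523) and 3.97% (18 of 453) in the KO libraries, against 5.49% (31 of 565) and 5.68% (37 of 652) in the CON libraries. Thus KO replicate 1 lay above CON replicate 2 at day 14 and above both CON libraries at day 5. The day 14 log2 ratio of mean shares was -0.53 on this count.

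**Figure D1:**
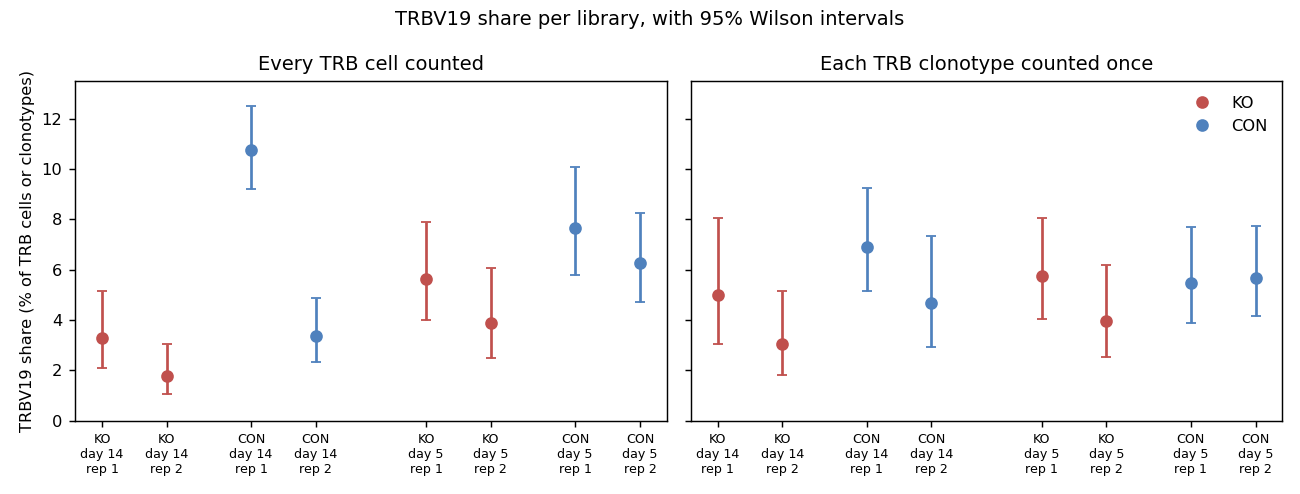
TRBV19 share in percent for each of the 8 libraries, with all TRB cells counted (left) and each TRB clonotype counted once (right); points are single libraries, red for KO and blue for CON, and bars are 95% Wilson intervals. By cells the CON day 14 replicate 1 library stands at 10.8%, above the other libraries, and by clonotypes the 8 libraries lie between 3.06% and 6.91%.

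TRBV19 cells per TRBV19 clonotype were 1.20 and 1.00 in the KO day 14 libraries, against 3.56 and 1.59 in the CON day 14 libraries. At day 5 they were 1.03 and 1.00 in the KO libraries, against 1.45 and 1.24 in the CON libraries. All 4 KO libraries were below the 4 CON libraries on this measure. The measure also depends on how many cells were read. The KO libraries held 18 and 13 TRBV19 cells at day 14 and 31 and 18 at day 5. The CON libraries held 146 and 27 at day 14 and 45 and 46 at day 5. What part these numbers have in the difference was not tested. The other TRB chains of the day 14 libraries had 1.85 and 1.73 cells per clonotype in KO, against 2.19 and 2.22 in CON. They too were lower in KO at day 14, and the TRBV19 value lay below that of the other chains in both KO libraries and in CON replicate 2. At day 5 the other chains had 1.05 and 1.02 cells per clonotype in KO, against 1.02 and 1.12 in CON, which overlap.

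Of the 202 TRBV19 clonotypes summed over libraries, 186 were seen in 1 cell, 16 in 2 or more cells and 3 in 10 or more cells. The 3 large clonotypes held 124 cells and all were in CON libraries. Large clonotypes of other segments were present in KO at day 14. No clonotype of any segment reached 10 cells in the KO libraries at day 5, where the largest had 5 and 4 cells. How many clonotypes of 10 or more cells all segments held in each genotype is not given here. At day 14 the largest TRB clonotype of any segment had 70 and 86 cells in the KO libraries, against 101 and 150 in the CON libraries. None of these used TRBV19. At day 14, 27.8% and 0% of TRBV19 cells belonged to clonotypes of 2 or more cells in the KO libraries, against 75.3% and 40.7% in the CON libraries. At day 5 these shares were 6.45% and 0% in the KO libraries, against 33.3% and 32.6% in the CON libraries. In the other TRB cells the shares at day 14 were 55.7% and 53.1% in the KO libraries, against 63.4% and 66.9% in the CON libraries. In those cells at day 5 they were 8.48% and 3.38% in KO, against 2.58% and 15.4% in CON. KO day 14 replicate 2 and KO day 5 replicate 2 held 13 and 18 TRBV19 cells, each with a joint of its own.

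**Figure D2:**
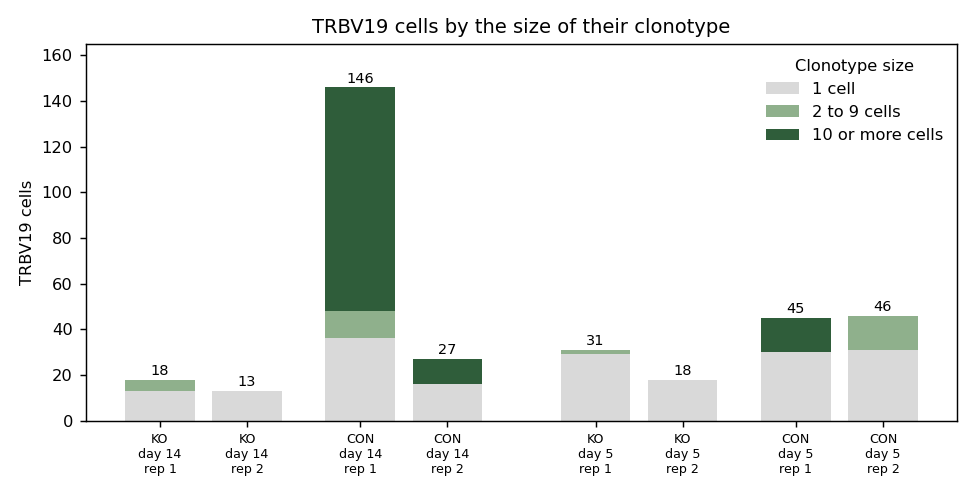
Number of TRBV19 cells per library, stacked by the size of the clonotype they belong to (1 cell, 2 to 9 cells, 10 or more cells), with the total above each bar. In CON day 14 replicate 1, 98 of 146 TRBV19 cells belong to a clonotype of 10 or more cells. No KO library has a TRBV19 clonotype of that size, and each KO library holds only 13 to 31 TRBV19 cells.

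The largest TRBV19 clonotype was the 98-cell TRBJ1-4 joint of CON day 14 replicate 1. It made up 7.22% of that library's TRB cells (95% Wilson interval 5.96% to 8.72%) and 67.1% of its TRBV19 cells, and ranked behind a clonotype of 101 cells that did not use TRBV19. All 98 cells had an alpha chain (TRA), and in all 98 it was the same TRAV14-1 and TRAJ24 joint, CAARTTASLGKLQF. Without this clonotype TRBV19 was 3.81% of the library's TRB cells. In the other 3 day 14 libraries the share was 1.79% to 3.38% with all clonotypes kept. Without the largest TRBV19 clonotype of each, it was 2.76% and 1.66% in the KO libraries and 2.03% in CON replicate 2.

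At day 5 the largest TRB clonotype of any segment had 5 and 4 cells in the KO libraries, against 15 and 16 cells in the CON libraries. The 15-cell TRBJ2-7 clonotype of CON replicate 1 was the largest TRB clonotype of its library, whose next clonotype had 4 cells. It held 2.56% of that library's TRB cells. An alpha chain was read in 10 of its 15 cells and was the same TRAV5-4 and TRAJ5 joint, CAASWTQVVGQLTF, in all 10. The 16-cell clonotype of CON day 5 replicate 2 did not use TRBV19. The leading TRBV19 clonotype of that library had 4 cells, with a TRAV12-2 and TRAJ53 alpha in the 3 cells where an alpha was read.

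The 11-cell TRBJ2-4 clonotype of CON day 14 replicate 2 held 1.38% of TRB cells, and all 11 cells shared a TRAV13-2 and TRAJ31 alpha, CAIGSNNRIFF. Its beta joint lacks the last base of the common TRBV19 start. In KO day 14 replicate 1 the most frequent TRBV19 clonotype had 3 cells, the form 3 joint above. In KO day 5 replicate 1 it had 2 cells joined to TRBJ2-7, 1 of which carried the TRAV11 and TRAJ18 alpha typical of invariant natural killer T (iNKT) cells. No joint of the 3 large clonotypes was found in another library.

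A TRBV19 beta CDR3 recurred in libraries from both genotypes and both days. Of its pairings with an alpha chain, 1 was read in KO libraries only and 1 at day 14 only. Both pairings together rest on 8 cells, and what part sampling has in their absence elsewhere was not tested. The beta CDR3 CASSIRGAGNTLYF with TRBJ1-3 was read in 8 cells of 4 libraries: 4 cells in KO day 14 replicate 1, 2 cells in KO day 14 replicate 2, 1 cell in CON day 14 replicate 2 and 1 cell in KO day 5 replicate 2. The 4 nucleotide forms shown above encode these same residues, and 2 of the forms were each read in 2 libraries. KO day 14 replicate 1 and KO day 14 replicate 2 each held 2 of the forms.

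All 8 cells carried 1 of only 2 alpha chains, as told by their CDR3 residues. In 2 of these cells a further productive alpha was read as well. The sequences are shown because the alpha chains, which rearrange independently of the beta chain, recurred with it; capitals mark the base at which the TRAJ34 forms differ.
TRAV14 with TRAJ7, CAASPDYSNNRLTL: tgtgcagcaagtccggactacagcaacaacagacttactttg
TRAV6N-7 with TRAJ34, form 1: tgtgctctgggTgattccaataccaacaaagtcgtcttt
TRAV6N-7 with TRAJ34, form 2: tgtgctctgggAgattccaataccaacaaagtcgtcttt

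The TRAJ7 alpha was paired with the recurring beta in 5 cells of 3 KO libraries: 3 cells in day 14 replicate 1, 1 in day 14 replicate 2 and 1 in day 5 replicate 2. The deposited V name was TRAV14D-2 in the day 14 libraries and TRAV14-3 in the day 5 library. The match between the days is therefore in the CDR3 bases and the J segment, and the V sequences were not compared. Over the series this alpha CDR3 was read in 6 cells, of which 5 had a TRB chain, all 5 with TRBV19.

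The TRAJ34 alpha, with residues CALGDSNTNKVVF, was paired with the recurring beta in 3 cells: 1 each in KO day 14 replicate 1, KO day 14 replicate 2 and CON day 14 replicate 2. Over the series it was read in 5 cells, in all 4 day 14 libraries and in none of the day 5 libraries. Of these, 4 had a TRB chain and all 4 were TRBV19 with TRBJ1-3. In CON day 14 replicate 1 the beta CDR3 differed from the recurring one by A8S, counted from 1 at the first residue of CDR3. Form 2 was read in KO day 14 replicate 2 and form 1 in the other 3 day 14 libraries, so the same residues were built from different bases in the alpha chain too.

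The depth behind these cells was low, with 3 to 11 TRB UMIs per cell and 1 to 6 TRA UMIs per cell. The 10 cells with a beta CDR3 found in more than 1 library had 10 distinct barcodes. The other recurring beta residues, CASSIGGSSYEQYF with TRBJ2-7, were read in 1 cell each of KO day 5 replicate 1 and KO day 5 replicate 2, from different nucleotide joints. Only the cell of replicate 2 had an alpha chain, so pairing cannot be compared.

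**Figure D3:**
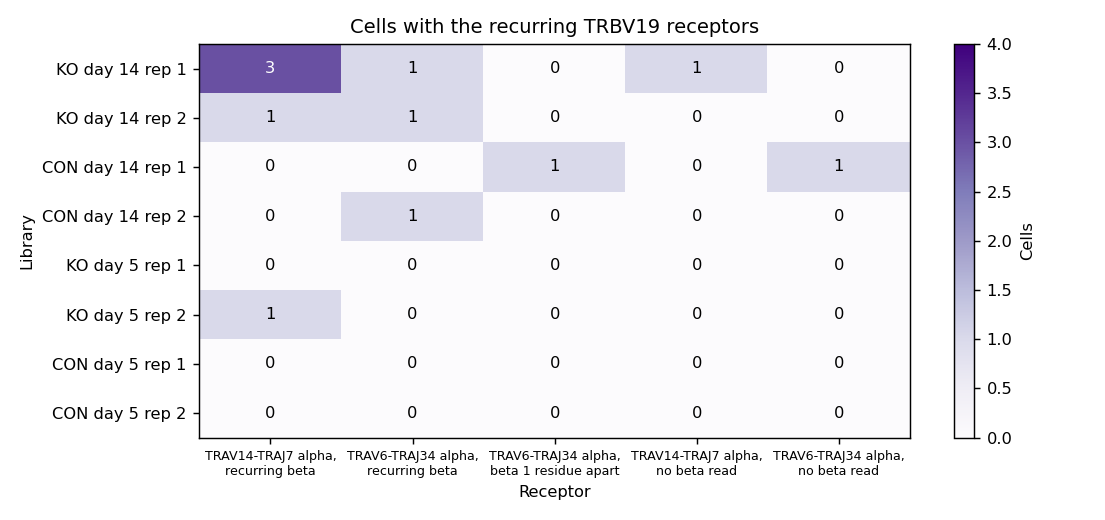
Number of cells in each library (rows) with the recurring TRBV19 receptors (columns), split by alpha chain and by whether the beta chain was the recurring CDR3, differed at 1 residue, or was not read; darker cells hold more. The TRAJ34 alpha occurs in each of the 4 day 14 libraries, and the TRAJ7 alpha in 3 KO libraries.

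Few beta CDR3s were found in more than 1 library, of TRBV19 or of the rest. Of 196 TRBV19 clonotypes defined by CDR3 residues and J segment, 2 were found in 2 or more libraries (1.02%), against 43 of 3604 clonotypes of the other TRBV segments (1.19%). In 4 or more libraries there was 1 TRBV19 clonotype, against 2 of the other segments. Paired receptors with the same residues in both chains numbered 14 in 2 or more libraries of the series, of which 2 used TRBV19. In 3 or more libraries there were 3, and the same 2 TRBV19 receptors were among them. Those 2 are the TRAJ7 and TRAJ34 receptors described above, which share their beta residues. Allowing 1 mismatch at equal length and the same J segment, TRBV19 CDR3s of different libraries formed 19 pairs, 7 identical and 12 with 1 mismatch.

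The CDR3 of TRBV19 chains most often began CASSI. Cells with the iNKT-type alpha were set aside for the CDR3 and J measures, leaving 197 TRBV19 clonotypes. Of these, 76 began with CASSI (38.6%), compared with 6 of 3059 clonotypes of the other segments, whose V segments encode other starts. The count was 6 of 15 and 7 of 13 in the KO day 14 libraries, against 16 of 41 and 4 of 16 in the CON day 14 libraries. At day 5 it was 11 of 29 and 7 of 18 in the KO libraries, against 9 of 29 and 16 of 36 in the CON libraries. CASSM and CASSP each began 18 clonotypes. After CASSI the next residue was glycine in 20 clonotypes and arginine in 15, so that 7.61% of TRBV19 clonotypes began CASSIR.

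The CASSIR clonotypes were spread over 6 libraries. They numbered 2 and 3 in the KO day 14 libraries, against 4 and 1 in the CON day 14 libraries. At day 5 they numbered 0 and 2 in the KO libraries, against 0 and 3 in the CON libraries. These counts include the forms of the recurring beta CDR3. Such forms make up the whole count in KO day 14 replicate 1 and in CON day 14 replicate 2. They are 2 of the 3 in KO day 14 replicate 2 and 1 of the 2 in KO day 5 replicate 2. The bases between the matched V and J ends numbered 11 at the median (quartiles 9 and 14, range 1 to 25). The joints of the recurring beta CDR3 had 9 such bases in 3 of the 4 forms and 11 in form 2. The 98-cell and 15-cell joints had 18 and 20.

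The CDR3 length of TRBV19 chains did not differ from that of other beta chains beyond the spread between libraries. The mean length was 13.8 ± 0.297 residues for TRBV19 and 13.9 ± 0.0664 for the other TRB chains of the same libraries (SD, n = 8 libraries; difference -0.0812, two-sided exact sign-flip permutation test p = 0.508, adjusted over 6 measures 0.539). The most frequent length was 14 residues in both sets, 31.5% of TRBV19 clonotypes and 32.2% of the others. A length of 13 residues was found in 50 of 197 TRBV19 clonotypes and 582 of 3059 others.

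**Figure D4:**
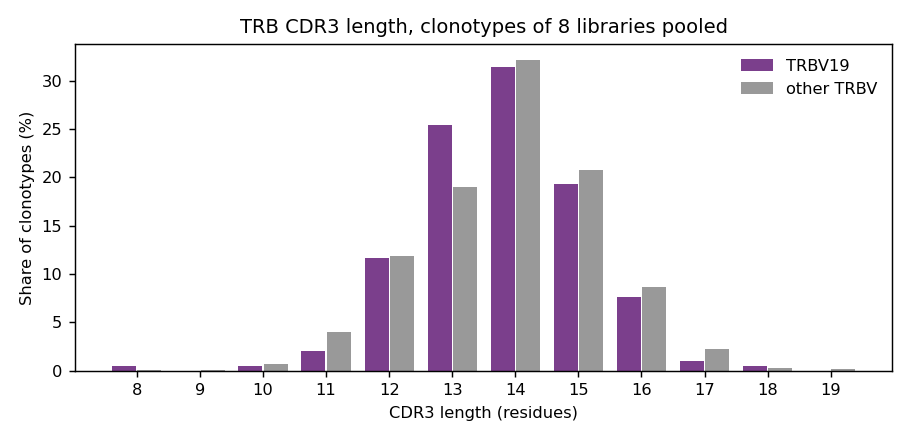
Share of TRB clonotypes in percent at each CDR3 length in residues, for TRBV19 (purple, 197 clonotypes) and the other TRBV segments (grey, 3059 clonotypes), pooled over 8 libraries without cells carrying the iNKT-type alpha. Both distributions have their highest bar at 14 residues.

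Between genotypes the mean TRBV19 CDR3 length was 14.13 and 14.08 residues in the KO day 14 libraries, against 13.98 and 13.25 in the CON day 14 libraries. At day 5 it was 13.83 and 13.94 in the KO libraries, against 13.55 and 13.69 in the CON libraries. Within each day both KO libraries lay above both CON libraries. The KO mean was 14.0 ± 0.137 and the CON mean 13.6 ± 0.302 (SD, n = 4 each), a difference of 0.378 residues with a two-sided exact permutation p = 0.0556 within days. That is the smallest p that the 36 relabelings allow, and its adjusted value over 3 measures was 0.167, so the difference did not pass 0.05. It was 0.196 residues without CON day 14 replicate 2. With every cell counted in place of every clonotype the difference was -0.263 residues, in the opposite direction.

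The middle of the TRBV19 CDR3, without its first 5 and last 4 residues, had a mean Kyte-Doolittle hydropathy (higher is more hydrophobic) of -1.16 ± 0.155, against -1.27 ± 0.0532 in the other chains (SD, n = 8 libraries). It was higher in 7 of 8 libraries, but did not pass the threshold (exact sign-flip p = 0.0703, adjusted 0.141). The difference of 0.110 became 0.000755 with every cell counted. Between genotypes it was -1.09 ± 0.0868 in KO and -1.22 ± 0.194 in CON (SD, n = 4 each; exact permutation p = 0.333, adjusted 0.5). This difference, 0.129, was 0.0208 without CON day 14 replicate 1, 0.0853 without KO day 5 replicate 1, 0.238 without CON day 14 replicate 2 and 0.412 with every cell counted.

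No J segment passed the test as a partner of TRBV19. Of 12 TRBJ segments tested, 0% passed an adjusted p of 0.05 in the exact sign-flip test, and 1 had an unadjusted p under 0.05. That segment, TRBJ2-5, made up 7.55% ± 3.85 of TRBV19 clonotypes and 11.6% ± 1.96 of other TRB clonotypes (SD, n = 8 libraries), lower in 8 of 8 libraries. The difference of -4.08 percentage points was -7.06 with every cell counted. Its exact p of 0.00781 is the smallest the 8 libraries allow, and the adjusted value was 0.0938. By library TRBJ2-5 was 0% and 7.69% of TRBV19 clonotypes in KO day 14, against 9.76% and 12.5% in CON day 14. It was 6.90% and 11.1% in KO day 5, against 6.90% and 5.56% in CON day 5. These are 0 to 4 clonotypes per library.

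TRBJ2-1 made up 17.1% ± 9.26 of TRBV19 clonotypes and 10.3% ± 0.886 of the others (SD, n = 8 libraries; higher in 6 of 8, exact p = 0.0625, adjusted 0.375). TRBJ2-7, the most used J segment of the other chains at 22.6%, made up 17.2% of TRBV19 clonotypes (exact p = 0.164, adjusted 0.431). TRBJ1-3, the partner in the recurring beta CDR3, ranged up to 33.3% in KO day 14 replicate 1, where it was joined in 5 of 15 clonotypes. It averaged 10.5% (exact p = 0.242, adjusted 0.469). TRBJ1-3 was singled out after its values were seen. The Jbeta2 cluster as a whole made up 62.1% ± 9.58 of TRBV19 clonotypes and 68.3% ± 2.38 of the others (SD, n = 8 libraries; exact p = 0.180, adjusted 0.270). Between genotypes its share was 61.0% ± 10.0 in KO and 63.2% ± 10.5 in CON (SD, n = 4 each; exact permutation p = 0.944), and the sign of that difference turned when every cell was counted.

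**Figure D5:**
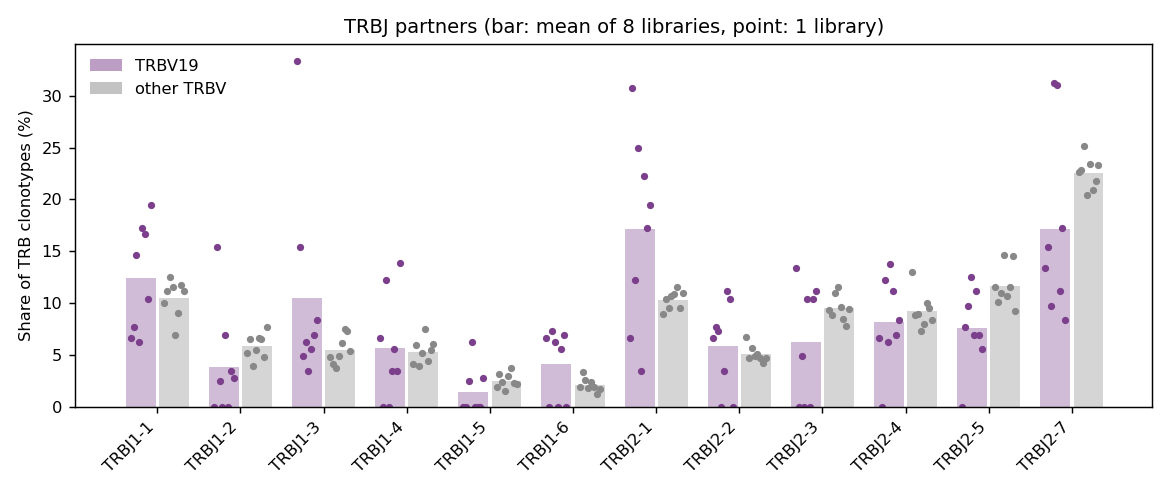
Share of TRB clonotypes in percent joined to each of the 12 TRBJ segments, for TRBV19 (purple, left bar of each pair) and the other TRBV segments (grey, right bar); bars are means of 8 libraries and points are single libraries. TRBJ2-5 is lower in TRBV19 in 8 of 8 libraries, and the TRBV19 points, which rest on 13 to 41 clonotypes per library, spread more widely than the grey ones for that segment.

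No TRAV family passed the test as a partner of TRBV19. An alpha chain was read in 300 of 344 TRBV19 cells. Among 166 paired TRBV19 clonotypes the most common families were TRAV6 with 26 clonotypes, TRAV7 with 24 and TRAV14 with 21. Of 10 TRAV families tested with the exact sign-flip test, 0% passed an adjusted p of 0.05 and 0 had an unadjusted p under 0.05. The smallest p belonged to TRAV12, at 7.15% of TRBV19 clonotypes and 10.5% of the others (exact p = 0.211, adjusted 0.906). TRAV14, which holds the alpha chains of the 98-cell clonotype and of the TRAJ7 receptor, averaged 12.5% in TRBV19 and 10.3% in the others (exact p = 0.328, adjusted 0.906). With every cell counted its difference of 2.16 percentage points was 13.4 (adjusted exact p = 0.469). TRAV9 averaged 8.31% in TRBV19 and 10.1% in the others (exact p = 0.383, adjusted 0.906).

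Few TRBV19 cells had the alpha chain of iNKT cells, a lipid-reactive T cell type of the liver that mostly uses Vbeta8, Vbeta7 and Vbeta2 in mice. The TRAV11 and TRAJ18 joint was found in 6 of the 300 TRBV19 cells with an alpha. At day 14 it made up 0% and 0% of TRBV19 cells with an alpha in the KO libraries and 0% and 3.70% in the CON libraries, against 3.29% to 5.53% of other cells with an alpha. At day 5 it made up 9.09% and 0% of TRBV19 cells in the KO libraries and 5.71% and 2.56% in the CON libraries, against 27.6% to 32.4% of other cells. The difference thus lay between -5.53 and 0.415 percentage points at day 14 and between -31.9 and -21.9 at day 5. Over both days it made up 2.63% ± 3.38 of TRBV19 cells and 17.4% ± 14.3 of other cells with an alpha (SD, n = 8 libraries). The share was lower in TRBV19 in 7 of 8 libraries, with an exact sign-flip p = 0.0156 and an adjusted 0.0938. The adjusted value was 0.0469 without possible doublets, and also 0.0469 with chains of 2 or more UMIs. No TRBV19 cell had the TRAV1 and TRAJ33 alpha of mucosal-associated invariant T cells. A pair of productive alpha chains was read in 6.09% ± 4.08 of TRBV19 cells and 11.3% ± 5.05 of other cells with an alpha (SD, n = 8 libraries; exact p = 0.0625, adjusted 0.141).

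Over time, the TRBV19 share did not pass the test. Its mean over 4 libraries was 4.81% (SD 4.03) at day 14, against 5.86% (SD 1.56) at day 5. The log2 ratio of day 14 to day 5 was -0.40 ± 0.41 (SE), with an adjusted p of 0.601 in edgeR's quasi-likelihood test over 98 V and J segments of both chains, in a fit with genotype as a term. In that comparison 10.2% of the segments were called. The range over alternatives was -0.97 to -0.06 and never passed the threshold. Leaving out CON day 14 replicate 1 gave -0.97, with an adjusted p of 0.0913.

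The share of TRBV19 cells in clonotypes of 2 or more cells averaged 35.97% (SD 31.3) over the 4 day 14 libraries, against 18.1% (SD 17.4) over the 4 day 5 libraries (exact permutation within genotype p = 0.167, adjusted over 4 measures 0.667). The range was 0% to 75.3% at day 14 and 0% to 33.3% at day 5. The difference of 17.9 percentage points was 9.22 without CON day 14 replicate 1 and 10.9 without KO day 14 replicate 1. In this design of 36 relabelings p cannot go below 0.0556. Against the other chains of the same libraries, 27.0% ± 25.3 of TRBV19 cells were in such clonotypes. The value for other TRB cells was 33.6% ± 28.6 (SD, n = 8 libraries, exact sign-flip p = 0.539, adjusted 0.539). This mean pools differences of both signs. In the KO libraries the difference was -27.9 and -53.1 percentage points at day 14 and -2.03 and -3.38 at day 5. In the CON libraries it was 11.9 and -26.2 at day 14 and 30.8 and 17.2 at day 5.

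The segments whose shares varied over the 8 libraries most like TRBV19 were TRBV29, TRBV14 and TRBV2, of 19 other TRBV segments compared. The measure was the root mean square difference of centred log2 shares, which was 0.50 for TRBV29, 0.72 for TRBV14 and 0.72 for TRBV2. TRBV29 (Vbeta7) made up 2.75% and 2.34% of TRB cells in KO day 14, against 3.91% and 2.76% in CON day 14. It made up 4.36% and 4.11% in KO day 5, against 6.47% and 6.26% in CON day 5. As with TRBV19, both KO values of TRBV29 lay below both CON values at each day, and the closest values at day 14, 2.75% in KO and 2.76% in CON, were nearly equal. TRBV14 and TRBV2 did not keep this order at either day. TRBV14 was 2.93% and 1.93% in KO day 14, against 5.31% and 0.752% in CON day 14. It was 1.82% and 1.73% in KO day 5, against 2.73% and 1.77% in CON day 5. TRBV2 was 3.11% and 1.93% in KO day 14, against 2.51% and 1.88% in CON day 14. It was 2.18% and 2.60% in KO day 5, against 2.22% and 4.08% in CON day 5. The shares of 1 library are parts of 1 total, so segments are not independent of each other.

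The number of UMIs behind the chain was lower for TRBV19 than for the other beta chains. The median TRB UMIs per TRBV19 cell was 6 and 6 in KO day 14, 6 and 10 in CON day 14, 6 and 9.5 in KO day 5, and 7 and 10 in CON day 5. In the other TRB cells of the same libraries it was 11 and 10 in KO day 14, 11 and 11 in CON day 14, 9 and 9 in KO day 5, and 10 and 12 in CON day 5. It was lower in 7 of 8 libraries, and TRBV19 had the 4th lowest mean of library medians among 20 TRBV segments, 7.56 ± 1.92 UMIs (SD, n = 8 libraries). What part chain depth has in the shares was not tested. An alpha chain was read in 83.3% and 84.6% of TRBV19 cells in KO day 14, and in 92.5% and 100% in CON day 14. At day 5 it was read in 71.0% and 88.9% in KO, and in 77.8% and 84.8% in CON. In the other TRB cells this share lay between 75.9% and 87.7%.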

How the data were processed

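Receptor contigs of 8 single-cell 5′ V(D)J libraries were used. The deposited tables hold counts of UMIs and reads per contig, not normalized, per the file headers. The submitters' processing notes name CASAVA 1.8, Cell Ranger 3.1.0, R 4.1.2, Seurat 4.0.0 and the build GRCm38 (mm10), with no role given. Contigs called cells, high confidence and productive were kept, with the TRB contig of most UMIs per barcode. TRAV copies marked D or N were merged (88 names to 47). Possible doublets (2 or more TRB or 3 or more TRA chains) were kept, and left out as an alternative. A low number of UMIs can lose a chain, which lowers its share.

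Cells per segment were tested for day with edgeR 4.0.16 (quasi-likelihood, offset of cells with that chain, genotype as a term) over segments of 40 or more cells, with Benjamini-Hochberg adjustment and a threshold of 0.05. DESeq2 1.42.0 was an alternative (R 4.3.3). Within-library differences used two-sided exact sign-flip tests, and day or genotype differences exact permutations within strata (Python 3.11.15, SciPy 1.17.1). The segment fit was tested on simulated data with changes much larger than the TRBV19 day difference. That check does not bear on differences of the size seen for TRBV19. CDR3 measures count each clonotype once, without iNKT-type cells. Shares of each library have 95% Wilson intervals from its 462 to 1357 TRB cells.

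Named clonotypes were the most frequent of each library, those of 10 or more cells and CDR3s found in 2 or more libraries. Named J segments and TRAV families were those past the threshold, or the 3 with the smallest p. The segment, members and lists were chosen with earlier results of these data known. Gene coordinates come from the RefSeq gene table (GRCm38.p6).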

Additional observations from a re-analysis of the deposited data

How the results depend on the processing

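Of 300 alternatives run, 283 kept the direction and side of the threshold, or stayed within the spread between libraries. The KO over CON log2 ratio of TRBV19 shares at day 14, -1.47, was -0.527 with each clonotype counted once, and -0.500 without the 98-cell clonotype, an alternative chosen after seeing the data. Leaving out 1 library at a time gave -2.08 to -0.411 at day 14, -0.838 to -0.305 at day 5 and -1.31 to -0.479 over both days. The difference in iNKT-type share, -14.8 percentage points, became -16.1 without possible doublets and -14.7 with chains of 2 or more UMIs, where it passed the threshold (adjusted exact p = 0.0469 in each, over a range of 0.0469 to 0.188). With every cell counted, signs turned for CDR3 length against other chains (0.383 residues), CDR3 length in KO against CON (-0.263), Jbeta2 share in KO against CON (0.350 points) and hydropathy at day 14 against day 5 (-0.141). Leaving out 1 library at a time also turned signs for differences that passed no test. These were the Jbeta2 share in KO against CON (-6.98 to 2.47, positive without KO day 14 replicate 1, CON day 14 replicate 2 or CON day 5 replicate 1), the expanded share against other chains (-11.9 to 0.0577, positive without KO day 14 replicate 2), and at day 14 against day 5 the CDR3 length (-0.0770 to 0.286, negative without CON day 14 replicate 1), Jbeta2 share (-9.24 to 0.207, positive without CON day 14 replicate 1) and hydropathy (-0.0882 to 0.129, negative without CON day 14 replicate 2 or KO day 5 replicate 2). With iNKT-type cells kept, the TRAV12 difference of -3.32 points was -1.43 and the TRAV9 difference of -1.83 was -0.291, and neither passed the test before or after. The causes were not tested.

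Deviations of same-numbered day 14 and day 5 libraries correlated at 0.0696 in KO and 0.0571 in CON over 98 segments. With 2 libraries per group, and with KO not compared to CON, this cannot decide whether replicate numbers pair the samples. With the replicate block, the TRBV19 day log2 ratio was -0.50 (adjusted p = 0.472) and 7 segments were called instead of 10. The number of segments called was 2 without iNKT-type cells, 5 with each clonotype counted once and 3 to 12 when 1 library was left out. TRBJ segments and TRAV families called by the exact test stayed at 0 under each alternative. With 13 to 146 TRBV19 cells per library, shares of TRBV19 clonotypes move by several points with 1 clonotype.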

Other observations

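Non-productive TRB contigs, which encode no receptor, gave TRBV19 in 8 of 160 contigs in KO (5.00%, 95% Wilson interval 2.56% to 9.56%) and 16 of 238 in CON (6.72%, 4.18% to 10.6%). These counts pool the libraries of a genotype, so the intervals leave out the spread between libraries. By library TRBV19 was in 1 of 55 and 2 of 36 contigs in KO day 14, against 8 of 61 and 3 of 113 in CON day 14. At day 5 it was in 4 of 41 and 1 of 28 in KO, against 2 of 23 and 3 of 41 in CON. Over all libraries TRBV19 was in 24 of 398 non-productive contigs (6.03%), beside 5.97% of TRB cells by productive chain. TRBV19 was the second productive TRB chain of a further 12 cells, and 8 of 217 productive TRB contigs from barcodes not called cells carried it.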
